A study of Drosophila melanogaster with 2 samples.

Results

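The regions described here are ChIP-seq peaks of the fruit fly protein CG17328 whose summit lies just downstream of a protein-coding transcript start, inside the transcribed stretch. A peak belongs to them if its summit is 0 to 500 bp downstream, by strand, of the nearest coding start and every coding start within 500 bp of the summit is on 1 strand. Of the 5802 peaks of the authors' conservative list on the main chromosome arms, 448 (7.72%) met this rule, at 443 starts of 426 genes. They are called downstream peaks below. The same rule on the other side of the start gave 1167 upstream peaks, and 725 peaks at divergent promoters had coding starts on both strands within 500 bp.

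The study mapped CG17328, a zinc-finger protein, in whole Drosophila melanogaster embryos aged 0 to 24 h. Both of its samples, biological replicates 1 and 2, came from the strain CG17328-GFP, transgenic flies that express CG17328 fused to eGFP, and the tag was pulled down with an anti-GFP antibody after sonication; the labels do not name the promoter of the fusion. There was 1 group, so no genotype, stage or treatment could be compared, and a whole embryo of mixed age holds many cell types. The lists carry no read counts, so depth is unknown, and a peak is described by the authors' peak signal (peak height) as pooled over both samples and as listed for each sample.

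In a fly gene, the core promoter around the transcript start positions RNA polymerase II, and some of its elements, such as the downstream promoter element, lie within the transcribed stretch. Just downstream of the start, polymerase often pauses before productive elongation, and the stretch usually encodes the 5′ untranslated region (5′ UTR) of the mRNA, which is often interrupted by a first intron. Sequence-specific factors are more commonly mapped to the nucleosome-poor stretch on the other side of the start.

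The 30 bases centred on the summit show how varied these regions are in base composition, which differed with distance from the start. They are written on the gene's strand from 5′ to 3′, with every G and C in capitals, and were read from the RefSeq copy of dm6. The first set holds summits within 100 bp of the start.
PNPase summit, chr3R:31404645-31404674, minus strand, 81 bp downstream: aGaaaCGtaCaGGGCttttattGtaaGatt
CG9399 summit, chr3R:9574149-9574178, minus strand, 48 bp downstream: GttGCGGtGCtaaaattatttttataattG
RpS4 summit, chr3L:13041763-13041792, plus strand, 21 bp downstream: CGaCGCCaaCtGCCCGCtGGCCaCaCCGCC
RpL30 summit, chr2L:19009261-19009290, minus strand, 31 bp downstream: atCCCCCCGtCGGtCaCaCCaaCaCaaaCG
RpL27A summit, chr2L:4458345-4458374, minus strand, 5 bp downstream: CGtattttttGttatCGCCGCCGGGCGGtC
The second set holds strong summits farther from the start.
ph-p summit, chrX:2137892-2137921, minus strand, 465 bp downstream: attttaCtaaaCGttttCattttaCttatC
Ptp4E summit, chrX:4939973-4940002, plus strand, 406 bp downstream: taCatttCatatattaaCttCtaaatCtCG
rudhira summit, chrX:11818591-11818620, plus strand, 268 bp downstream: tCGaCtGCttaaCtttGtGaCaGttttGtt
scramb2 summit, chr3L:3046447-3046476, minus strand, 351 bp downstream: ataGCaCCCataGttatCtatGtaaaaaaG
The third set gives 2 of the strongest upstream peaks.
CG14100 summit, chr3L:19590601-19590630, minus strand, 91 bp upstream: GttCttGtatCGCaaaaattCatttGCtta
Ugalt summit, chrX:2703875-2703904, minus strand, 37 bp upstream: tGaaatGCaCaatGCaCttttaaattttGt

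RpS4 had 23 G or C among its 30 bases (76.7%) and RpL30 had 18, whereas ph-p had 6 and Ptp4E had 7. The far summits shown resemble the upstream summits of CG14100, with 9 G or C, and Ugalt, with 8. PNPase, with 10, and CG9399, with 8, are near the start and yet poor in G and C, so distance and composition did not go together in every peak.

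The strongest downstream peak lay in the 5′ UTR of PNPase, the mitochondrial polynucleotide phosphorylase, with a pooled signal of 1419 and signals of 673 in replicate 1 and 752 in replicate 2. It ranked 13 of all conservative peaks on the arms. GstE13, a glutathione S-transferase gene, followed with 841 pooled, 366 in replicate 1 and 486 in replicate 2, at 72 bp from the start. Ppa, which encodes an F-box protein, had 676 pooled, 369 in replicate 1 and 316 in replicate 2, at 14 bp. In CG9399 the signal was 595 pooled, 275 in replicate 1 and 317 in replicate 2. These are the 4 genes with the strongest peaks within 100 bp of the start, and all 4 summits lay in 5′ UTR exons. They were picked by pooled signal among peaks found in both samples, so a high signal in each was largely set by that choice.

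Among the peaks farther than 100 bp from the start, ph-p, a Polycomb group gene, had the highest pooled signal, 613, with 289 in replicate 1 and 316 in replicate 2. Another start of ph-p had an upstream peak of 1708 at position -493. Ptp4E, a receptor tyrosine phosphatase gene, had 588 pooled, 280 in replicate 1 and 303 in replicate 2. The peak of rudhira had 446 pooled, 213 in replicate 1 and 231 in replicate 2, and that of scramb2, a phospholipid scramblase gene, 386, 164 and 216 in the same order. CAH3, a carbonic anhydrase gene, had 381 pooled, with 184 in replicate 1 and 196 in replicate 2. Trl, which encodes the GAGA factor, carried a peak of 289 at 126 bp, with 124 in replicate 1 and 168 in replicate 2. The peaks of Ptp4E, rudhira, scramb2, hng3 and aru lay in introns, at 268 to 488 bp from the start.

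These peaks were exceptions, since most downstream peaks were weak. Their median signal was 73.0, with an interquartile range of 59.8 to 99.4, against 106 for upstream peaks, 115 for divergent peaks and 94.5 for all conservative peaks on the arms. Only 39 of the 448 exceeded a signal of 200, 111 exceeded 100 and 42 were below 50. A signal above the median of all arm peaks was found in 129 downstream peaks (28.8%, Wilson 95% interval 24.8 to 33.2%), against 654 upstream peaks (56.0%, 53.2 to 58.9%). The odds ratio was 0.317 (two-sided Fisher's exact test, Benjamini-Hochberg adjusted p = 1.42e-22). Against divergent peaks, of which 59.4% were above the median, the odds ratio was 0.276 (Fisher's exact test, adjusted p = 9.38e-25). Peaks are not replicates, so these and the following tests and Wilson intervals cover counting error over peaks only.

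**Figure D1:**
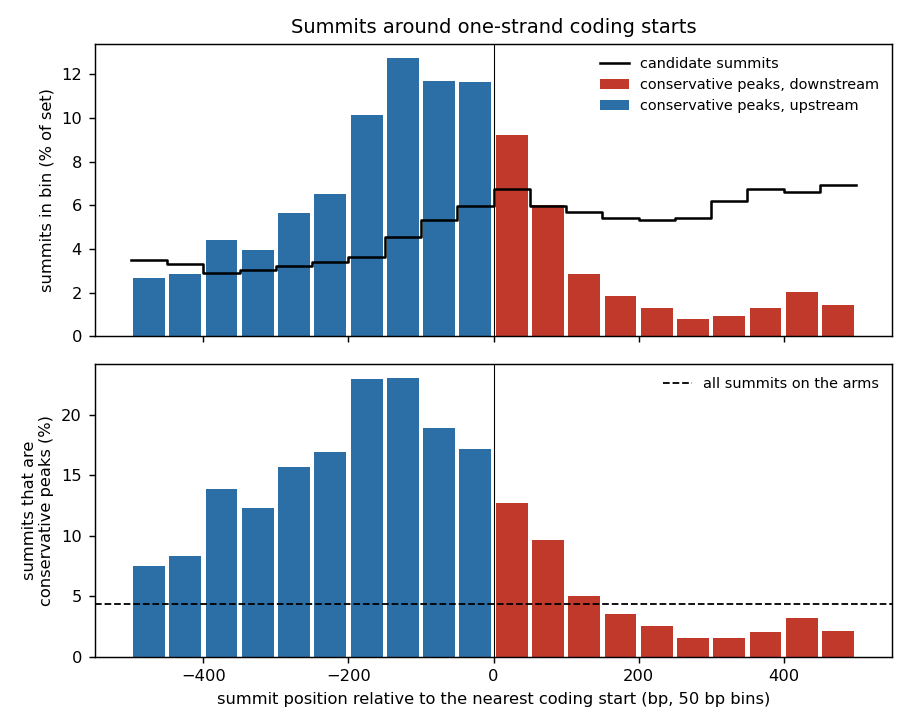
Top, share of summits per 50 bp bin around coding starts on 1 strand, for conservative peaks (bars) and candidate summits (line). Bottom, percentage of the summits in each bin that are conservative peaks, with the 4.33% over all summits on the arms as a dashed line; bars fall below it beyond about 150 bp downstream.

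Whether so few downstream summits were called was examined against candidates, which are summits of the authors' ranked series-level lists that overlap none of the thresholded series-level peaks. Of the 1615 conservative peaks at one-strand starts, 448 (27.7%, Wilson interval 25.6 to 30.0%) lay downstream, against 9245 of 15131 candidates (61.1%). The odds ratio was 0.244 (Fisher's exact test, adjusted p = 5.39e-146), and 0.161 in the own list of replicate 2. Of all candidates and conservative peaks on the arms, 4.33% were conservative peaks. The share was 4.62% for downstream summits, 16.5% for upstream summits and 31.2% for divergent ones. Downstream summits as a whole were therefore near the background, and those above it lay within about 150 bp of the start. Within 0 to 50 bp, 12.6% of downstream summits were conservative peaks (150 peaks). At 51 to 150 bp the share was 7.44% (142 peaks), at 151 to 300 bp 2.54% (64 peaks) and at 301 to 500 bp 2.25% (92 peaks). Upstream, the shares at the same distances were 17.2%, 20.9%, 18.8% and 10.4%.

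The downstream summits lay at a median of 86.5 bp from the start, with an interquartile range of 37.75 to 234.75 bp, and 246 of them were within 100 bp. At the inner edge of the rule, Rab1 (summit 1 bp downstream, signal 73.9) and ihog (2 bp, 59.2) were the last peaks inside, and shot (1 bp upstream, 146) and CG8405 (1 bp upstream, 68.0) the first outside. At the outer edge, PMP34 (500 bp, 38.4) and nrv2 (496 bp, 57.2) were inside, and omd (502 bp, 92.4) and cu (506 bp, 77.9) outside. Peaks within 100 bp and peaks farther away did not differ detectably in signal: 49.2% and 51.0% were above the members' median (Fisher's exact test, odds ratio 0.930, adjusted p = 0.776). This comparison changed direction under some of the alternatives, among them the peaks at or below the median signal. Both samples held 30.1% of the near and 36.6% of the far peaks (odds ratio 0.744, Fisher's exact test, adjusted p = 0.237); in replicate 1's own list the odds ratio was 0.437 and passed.

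By arm, downstream peaks made up 9.34% of the conservative peaks on 2R (99 peaks), 7.86% on 3L (98), 7.61% on 3R (102), 7.10% on 2L (77) and 6.72% on X (71), and chromosome 4 had 1.

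The next question was which of these peaks were found again in each sample. A thresholded peak of both samples overlapped 148 downstream peaks (33.0%, Wilson interval 28.8 to 37.5%), against 656 upstream peaks (56.2%, 53.4 to 59.0%). The odds ratio was 0.384 (Fisher's exact test, adjusted p = 9.94e-17). Of divergent peaks 60.4% were found in both samples (odds ratio 0.323, Fisher's exact test, adjusted p = 6.28e-20). Another 176 downstream peaks (39.3%) overlapped a thresholded peak of neither sample, against 21.3% of upstream and 17.2% of divergent peaks. In the own list of replicate 2 the odds ratio was 0.706 against upstream peaks (65.5% and 72.9%, Fisher's exact test, adjusted p = 0.0480) and 0.648 against divergent peaks; in that of replicate 1 it was 0.276 and 0.169. Each of these is a recovery in the other sample. The difference in recovery also went with signal. Among peaks above the median of all arm peaks, 89.1% of downstream and 91.4% of upstream peaks were found in both samples (Fisher's exact test, adjusted p = 0.441). Among the others, 10.3% of downstream and 11.3% of upstream peaks were (Fisher's exact test, adjusted p = 0.732).

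Where only 1 sample held a thresholded peak, this was more often replicate 1 for downstream peaks than for upstream peaks. Of the 124 such downstream peaks, 77 (62.1%) were in replicate 1, against 38.4% of 263 upstream peaks and 30.2% of 162 divergent peaks. The odds ratios were 2.63 against upstream (Fisher's exact test, adjusted p = 4.22e-05) and 3.78 against divergent peaks (Fisher's exact test, adjusted p = 3.43e-07). In the samples' own thresholded lists, which share many sites and are given as a description, 277 of the 1102 one-strand promoter peaks of replicate 1 lay downstream (25.1%) and 226 of the 1122 of replicate 2 (20.1%). The tests in this paragraph and the next were chosen after the data had been seen.

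A signal could be read in both samples for 446 downstream peaks, with a median of 39.4 in replicate 1 and 37.3 in replicate 2. For upstream peaks the medians were 50.8 in replicate 1 and 59.9 in replicate 2. Nothing in the sources used here says whether both samples are on 1 scale, so only the classes were compared. Replicate 2 was the higher sample in 249 downstream peaks (55.8%) and in 828 of 1147 upstream peaks (72.2%; odds ratio 0.487, Fisher's exact test, adjusted p = 4.89e-09). Among peaks above the median signal the shares were 71.3% downstream and 82.8% upstream (Fisher's exact test, adjusted p = 0.00634), and among the others 49.5% and 58.4% in that order (Fisher's exact test, adjusted p = 0.0165). Within the downstream peaks, replicate 2 was higher in 48.8% of those within 100 bp and in 64.4% of those farther away (Fisher's exact test, adjusted p = 0.00196). Spearman's rho between the samples was 0.619 across the downstream peaks, 0.832 across upstream and 0.847 across divergent peaks, given as descriptions, since peaks of 1 library share its depth.

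**Figure D2:**
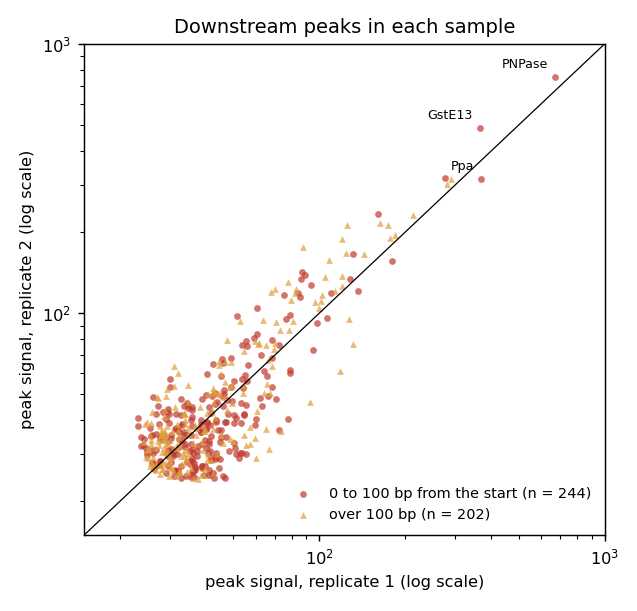
Signal of the 446 downstream peaks listed in both samples, replicate 1 on the x axis and replicate 2 on the y axis (log scales), with circles for summits within 100 bp of the start and triangles for those farther away; the line marks equal signal. PNPase stands at 673 in replicate 1 and 752 in replicate 2, and the bulk of the peaks lies around the medians of 39.4 and 37.3.

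Pooled signal was close to the sum of both samples, with a median ratio of 0.987 (interquartile range 0.927 to 1.02). In 18 downstream peaks, however, it was below the signal of either sample, at 2.03 to 22.7, and 17 of these had another conservative peak within 500 bp of the same start. Among the 18, CG11200, which had no such other peak, had 3.27 pooled against 63.3 in replicate 1 and 94.1 in replicate 2. The peak of crb, an apical polarity gene, which had such a peak, stood at 4.13 pooled against 37.0 and 37.6 in the same order. These genes were chosen after their values were seen. For the 18, the summit read in the sample lay a median of 168.5 bp (replicate 1) and 204 bp (replicate 2) from the pooled summit, against 20 bp and 15 bp for the other downstream peaks. The sample values of these 18 peaks thus mostly come from another summit, over 100 bp away in 16 of them in replicate 1 and in all 18 in replicate 2. Of the other downstream peaks, 17 in replicate 1 and 13 in replicate 2 also had the sample summit over 100 bp away. Of the 18, CG11200, CG32982 and CG11050 are still counted as found in both samples.

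**Figure D3:**
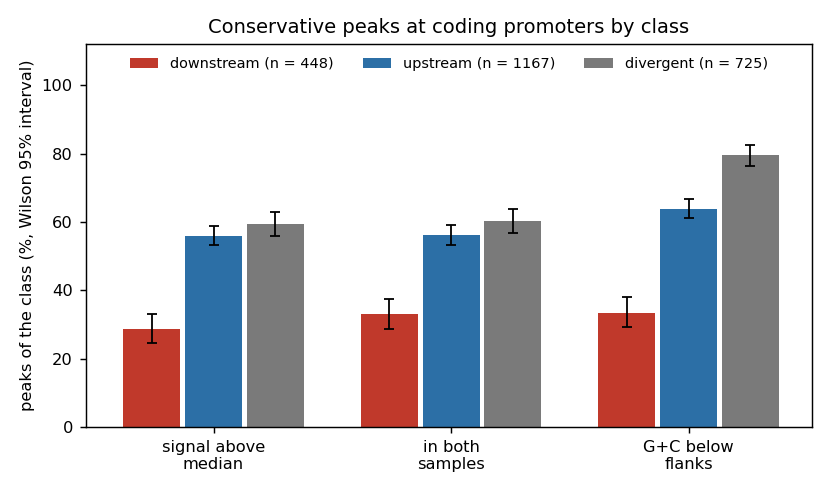
Share of downstream, upstream and divergent peaks with a signal above the median of all arm peaks, with overlap of a thresholded peak in both samples, and with G+C at the summit below that of the flanks (bars, with Wilson 95% intervals). Downstream peaks stand at 28.8%, 33.0% and 33.5%, below upstream and divergent peaks in each.

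Base composition at the summit was higher in G+C than the surroundings in most downstream peaks. The 50 bp on either side of the summit had a mean G+C content of 45.3% ± 9.96 (SD over 448 peaks), against 40.9% in flanking windows centred 300 bp to either side. Upstream peaks had 37.0% ± 11.6 at the summit and 42.3% in the flanks, and divergent peaks had 33.8% ± 10.4 and 45.8%. G+C was lower at the summit than in the flanks in 150 downstream peaks (33.5%), 746 upstream peaks (63.9%) and 577 divergent peaks (79.6%). The odds ratio was 0.284 against upstream peaks (Fisher's exact test, adjusted p = 1.58e-27) and 0.129 against divergent peaks (Fisher's exact test, adjusted p = 3.40e-56). Against divergent peaks it was 0.200 in the own list of replicate 2. The classes are set by the side of the start, so summit and flank windows cover different parts of the gene through the rule itself. G+C was not measured at upstream or divergent candidates, so the part of the rule in these differences was not tested.

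The G+C difference between downstream and upstream peaks was present on both sides of the median signal. Above the median of all arm peaks, 58.1% of downstream and 78.4% of upstream summits were lower in G+C than their flanks (Fisher's exact test, adjusted p = 2.18e-05). At or below it, the shares were 23.5% of downstream and 45.4% of upstream summits (Fisher's exact test, adjusted p = 9.99e-10). Strong downstream peaks had a mean G+C of 39.2%, and weaker ones 47.7%.

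Composition also changed with distance from the start. Downstream peaks had a mean G+C of 48.3% at 0 to 50 bp, 44.5% at 51 to 150 bp, 45.4% at 151 to 300 bp and 41.5% at 301 to 500 bp. Candidates at these distances had 47.2%, 47.0%, 49.8% and 51.1%, and upstream peaks 47.5%, 38.2%, 33.1% and 32.0%. Summits lower in G+C than their flanks made up 21.5% of downstream peaks within 100 bp and 48.0% of those farther away (odds ratio 0.297, Fisher's exact test, adjusted p = 1.23e-08). The difference from candidates changed sign with distance. At 0 to 50 bp, 18.7% of downstream peaks and 29.3% of candidates were lower than their flanks. At 51 to 150 bp the shares were 29.6% of downstream peaks and 28.8% of candidates (odds ratio 1.04, Fisher's exact test, adjusted p = 0.848), at 151 to 300 bp 42.2% and 25.5% (odds ratio 2.13, Fisher's exact test, adjusted p = 0.00844), and at 301 to 500 bp 57.6% of downstream peaks and 26.5% of candidates were. The odds ratios were 0.554 in the first bin (Fisher's exact test, adjusted p = 0.00844) and 3.77 in the last (Fisher's exact test, adjusted p = 2.53e-09). Over all distances the shares were 33.5% of downstream peaks and 27.0% of candidates, an odds ratio of 1.36 (Fisher's exact test, p = 0.00331). That comparison over all distances was 0.832 among the peaks at or below the median signal and 1.02 with a promoter window of 250 bp. It was 3.76 among peaks above the median signal, 2.31 in the own list of replicate 2, 2.19 with a window of 1000 bp and 2.16 against the strongest 10% of candidates, so it depended on which peaks entered.

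**Figure D4:**
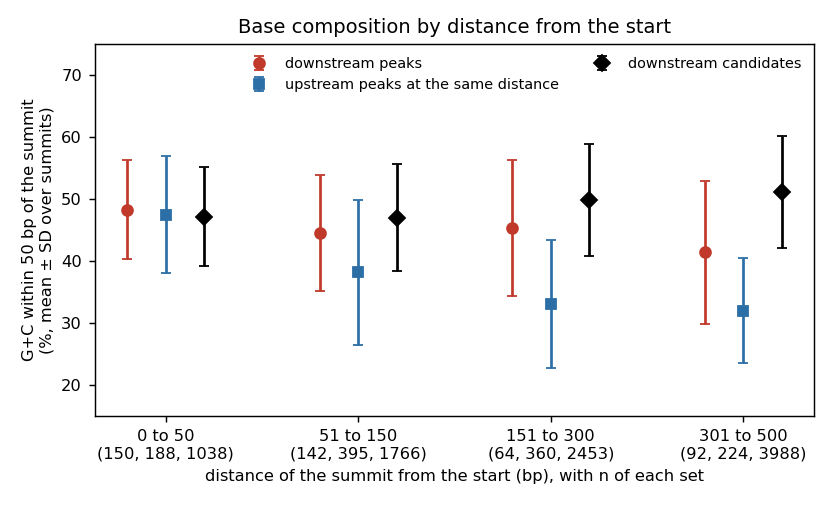
Mean G+C content (± SD over summits) within 50 bp of the summit by distance from the start, for downstream peaks, upstream peaks at the same distance and downstream candidates, with their numbers under the axis. All 3 sets lie near 48% next to the start; at 301 to 500 bp downstream peaks are at 41.5%, upstream peaks at 32.0% and candidates at 51.1%.

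Most summits lay in the untranslated part of the transcript. Of the 448 downstream summits, 316 (70.5%) lay in a 5′ UTR exon, 96 (21.4%) in an intron, 35 (7.81%) in a coding exon and 1 outside the transcripts of its start. Among downstream candidates, 34.3% lay in a 5′ UTR exon (odds ratio 4.59, Fisher's exact test, adjusted p = 3.71e-52) and 47.9% in a coding exon (odds ratio 0.0920, Fisher's exact test, adjusted p = 2.29e-73). The share in coding exons was 3.54% in the own list of replicate 2 (odds ratio 0.0399), 2.89% in that of replicate 1 (0.0323) and 0.775% among peaks above the median signal (0.00848). Against the strongest 10% of candidates, of which 48.7% lay in 5′ UTR and 36.7% in coding exons, the odds ratios were 2.52 for 5′ UTR and 0.146 for coding exons. Peaks also lay closer to the start than candidates, with 246 of the 448 peaks and 1953 of the 9245 candidates within 100 bp. With a promoter window of 100 bp, 96.0% of peaks and 82.6% of candidates lay in 5′ UTR exons (odds ratio 5.02), a smaller gap in shares. Coding exons held a smaller share of peaks than of candidates in each of the 4 distance bins. At 301 to 500 bp, 16.3% of downstream peaks and 62.4% of candidates were coding (odds ratio 0.118, Fisher's exact test, adjusted p = 1.41e-18). Introns held 21.4% of peaks and 16.9% of candidates (odds ratio 1.34, Fisher's exact test, adjusted p = 0.0174), but this turned to 0.711 with a promoter window of 250 bp and to 0.976 among peaks at or below the median signal. G+C content differs between coding and untranslated sequence, and its part in these shares was not tested.

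Coding-exon peaks were weaker than those in 5′ UTR exons and introns. Intronic downstream peaks had a median signal of 85.8 and a mean G+C of 38.0% ± 9.91 (SD over 96 peaks). Those in 5′ UTR exons had 73.7 and 46.3% ± 8.70 (316 peaks), and those in coding exons 55.9 and 55.4% ± 7.54 (35 peaks). Both samples held a thresholded peak at 42.7% of the intronic, 33.5% of the 5′ UTR and 2.86% of the coding peaks, the last being 1 of 35. The coding peaks differed from the 5′ UTR peaks in this share (odds ratio 0.0583, Fisher's exact test, adjusted p = 4.64e-05) and in the share above the members' median signal, 5.71% of coding and 51.3% of 5′ UTR peaks (Fisher's exact test, adjusted p = 9.73e-08). Against intronic peaks, of which 62.5% were above that median, the coding peaks also differed (Fisher's exact test, adjusted p = 4.66e-09). Intronic and 5′ UTR peaks were not shown to differ in signal (62.5% and 51.3% above the median, odds ratio 1.58, Fisher's exact test, adjusted p = 0.0691) or in recovery (Fisher's exact test, adjusted p = 0.114). However, 68.8% of intronic and 25.6% of 5′ UTR summits were lower in G+C than their flanks (odds ratio 6.38, Fisher's exact test, adjusted p = 3.55e-13). Position goes with distance, as the median summit was 358 bp from the start in introns, 277 bp in coding exons and 56 bp in 5′ UTR exons. These 9 comparisons were chosen after the data had been seen.

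Other features of the sites were compared with upstream peaks. A soft-masked repeat held 12.3% of downstream and 21.1% of upstream summits (odds ratio 0.524, Fisher's exact test, adjusted p = 4.93e-05), a difference that missed the threshold with a window of 1000 bp. A non-coding gene started within 500 bp of 5.58% of downstream and 6.17% of upstream summits (odds ratio 0.899, Fisher's exact test, adjusted p = 0.726). Another conservative peak lay within 500 bp of the same start for 69 downstream peaks (15.4%), against 8.83% of upstream peaks (odds ratio 1.88, Fisher's exact test, adjusted p = 2.47e-04). A start with peaks on both sides counts in both classes, and the downstream class is the smaller. Its share can thus be the higher through class size alone. This was not tested, and no conclusion is drawn from the difference. The odds ratio was 3.26 among peaks above the median signal and 1.43 among the others, and neither passed. In these 2 comparisons only partners on the same side of the median were counted, so pairs of a stronger and a weaker peak dropped out. Of those 69, 58 had a partner on the upstream side. The downstream peak was the weaker of the pair in 43 cases and the stronger in 26, with a median ratio of 0.616 to the strongest partner and a median distance of 455 bp between summits. Of the 43 weaker ones, 17 are among the 18 peaks whose pooled signal was below either sample. Without these 17, 26 were weaker and 26 stronger, at a median ratio of 0.986, an exclusion chosen after the data had been seen. As all 17 were weaker, leaving them out could only shift the tally this way, and no conclusion is drawn from it. Some of the 17 also stayed in as partners, as at CG14947, where a downstream peak of 67.9 counts as stronger than one of 2.03. In 5 pairs both peaks were downstream peaks of the same start, and each pair then counts once each way. Ptp4E was one of the stronger cases, at 588 against 69.7 for its partner at position -417, and aru another, at 370 against 65.1. The partner of Ptp4E is itself a downstream peak of another start, as are those of Cftr and Gli. The upstream side is thus the partner's position and not its class.

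A set of 23 short words, most of them core promoter or factor words, with A-rich and repeat words and 3 controls among them, was counted on both strands within 50 bp of the summit. Of these, 3 (13%) differed between downstream and upstream peaks after adjustment, and 8 at an unadjusted p under 0.05. GACGT, which is part of the downstream promoter element, was found at 53 downstream summits (11.8%) and 71 upstream summits (6.08%; odds ratio 2.07, Fisher's exact test, adjusted p = 0.0025). TATAAA, the word of the TATA box, was found at 46 downstream summits (10.3%) and 219 upstream summits (18.8%; odds ratio 0.495, Fisher's exact test, adjusted p = 5.58e-04). Both words were counted at any position in the window, so a match need not be a working promoter element. The classes are set by the side of the start, so words with a usual place relative to it can differ between them through the rule itself. This was not tested, and no conclusion is drawn from these words. TATTTTAA, a word taken from an earlier reading of these data, was found at 1.79% of downstream and 5.83% of upstream summits, which is a description, since these peaks chose the word. It is 1 of the 3, and against candidates 1 of the 5 below. The words TATAAA and TATTTTAA hold no G or C, and G+C differs between the classes; its part in these counts was not tested. With replicate 1's own list, and among peaks above the median signal, none of the 23 words passed.

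Set against downstream candidates, 5 of the 23 words (21.7%) differed. No word passed with a window of 250 bp or among peaks at or below the median signal, and 2 passed with replicate 1's own list. TATAAA was found at 10.3% of downstream peaks and 5.62% of candidates (odds ratio 1.92, Fisher's exact test, adjusted p = 0.00396), and TCAGT, an initiator word, at 23.0% and 17.7% (odds ratio 1.39, Fisher's exact test, adjusted p = 0.0385). TATTTTAA was found at 1.79% and 0.573%, again as a description. AAAAAAAA was also more frequent, at 5.58% of peaks and 3.20% of candidates (Fisher's exact test, adjusted p = 0.0446), and CAGCTG, an E-box, less frequent, at 3.57% and 6.83% (odds ratio 0.506, Fisher's exact test, adjusted p = 0.0385). GACGT was found at 11.8% of peaks and 9.45% of candidates and did not pass (Fisher's exact test, adjusted p = 0.255). None of the 23 words (0%) differed within 40 bp of the start itself between 410 starts with a downstream peak and 1103 with an upstream peak (Fisher's exact test, 1 word at an unadjusted p under 0.05). GACGT was found at 11.2% and 12.9% of these starts, and TATAAA at 7.07% and 6.62%, in the same order. The 33 starts with peaks on both sides were left out.

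A search for an 8-letter word gave AACGAAAA as the leading one, at 9 of 177 downstream and 2 of 461 upstream summits of the arms used to choose it. On the remaining arms it was found at 5 of 271 downstream summits (1.85%) and 7 of 706 upstream summits (0.992%), with an odds ratio of 1.88 (Fisher's exact test, p = 0.330). The word passed with a window of 250 bp, at an odds ratio of 3.89, and with only the first start of each gene, at 5.97, and was at 0.648 in the own list of replicate 1.

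Among the genes, those of cytoplasmic ribosomal proteins, the building blocks of the ribosome, had downstream peaks in 15 of 92 cases (16.3%, Wilson interval 10.1 to 25.2%). Over all 13968 protein-coding genes, 426 (3.05%) were nearest to a downstream peak. The own list of replicate 1 gave 9 ribosomal protein genes (9.78%) against 1.89% of all genes, and that of replicate 2 gave 11 (12%) against 1.57%. The lists were chosen with earlier results of these data known, so the count is a description. Upstream peaks stood at 25 of the same 92 genes (27.2%, against 7.69% of all genes) and divergent peaks at 29 (31.5%, against 5.13%).

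RpS4, a small-subunit protein gene, had the strongest of these peaks, with 355 pooled, 179 in replicate 1 and 157 in replicate 2. RpL30, of the large subunit, had 299 pooled, 131 in replicate 1 and 166 in replicate 2. RpL27A had 268 pooled, 128 in replicate 1 and 133 in replicate 2. All 15 peaks had a signal of 73.7 or more, with a median of 150, and 10 were found in both samples. The weakest was that of RpL6, with 28.3 in replicate 1, where it was in the ranked list only, and 43.0 in replicate 2. Of the 15, 13 summits were within 50 bp of the start, at a median of 21 bp, and RpL26 was the farthest at 109 bp. The 26 upstream peaks of these genes had a median summit 26 bp upstream of the start, whereas the median position of all upstream peaks was -151. Summits of ribosomal protein genes thus lay on either side of the start at short range. Their mean G+C was 46.3% ± 6.22 for the 15 downstream peaks and 46.8% ± 7.79 for the 26 upstream peaks.

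Of 52 translation factor genes, 2 had a downstream peak (3.85%, Wilson interval 1.06 to 13.0%), near the 3.05% of all genes. Upstream peaks stood at 7 of the 52 (13.5%, against 7.69% of all genes). The elongation factor gene eEF2 had 230 pooled, with 110 in replicate 1 and 119 in replicate 2, at 20 bp from the start. The initiation factor gene eIF3c had 130 pooled, with 55.6 in replicate 1 and 79.2 in replicate 2, at 27 bp. Both thus resemble the ribosomal protein genes in distance.

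Of 31 Rab GTPase genes, which control vesicle traffic, 3 had a downstream peak (9.68%, Wilson interval 3.35 to 24.9%), against 3.05% of all genes. This small count is a description, since the lists were chosen with earlier results of these data known. Rab5 had 79.1 pooled, 49.7 in replicate 1 and 33.6 in replicate 2, in an intron at 364 bp. Rab1 had 73.9 pooled, 43.4 in replicate 1 and 30.3 in replicate 2, and Rab40 had 63.1, 33.9 and 29.6 in the same order. All 3 were weak, and none was thresholded in both samples.

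Among 88 oxidative phosphorylation genes, 1 had a downstream peak (1.14%, Wilson interval 0.201 to 6.16%), an interval that holds the 3.05% of all genes. It was UQCR-14, a subunit gene of complex III, at a signal of 55.7. No downstream peak was found at 73 mitochondrial ribosomal protein genes, which allows a share of up to 4.11%, nor at 48 proteasome genes (up to 6.25%), 33 aminoacyl-tRNA synthetase genes (9.09%), 70 cuticle protein genes (4.29%), 179 chemoreceptor genes (1.68%) or 85 cytochrome P450 genes (3.53%). There was also none at 25 Mediator, 31 general transcription, 25 heat shock, 33 vacuolar ATPase and 21 nucleoporin genes, where a count of 0 allows shares of 9.09 to 14.3%. Apart from the chemoreceptors, these limits are above the 3.05% of all genes, so a lower share could not be told from the background. CG17328 itself was not among the genes with a downstream peak.

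**Figure D5:**
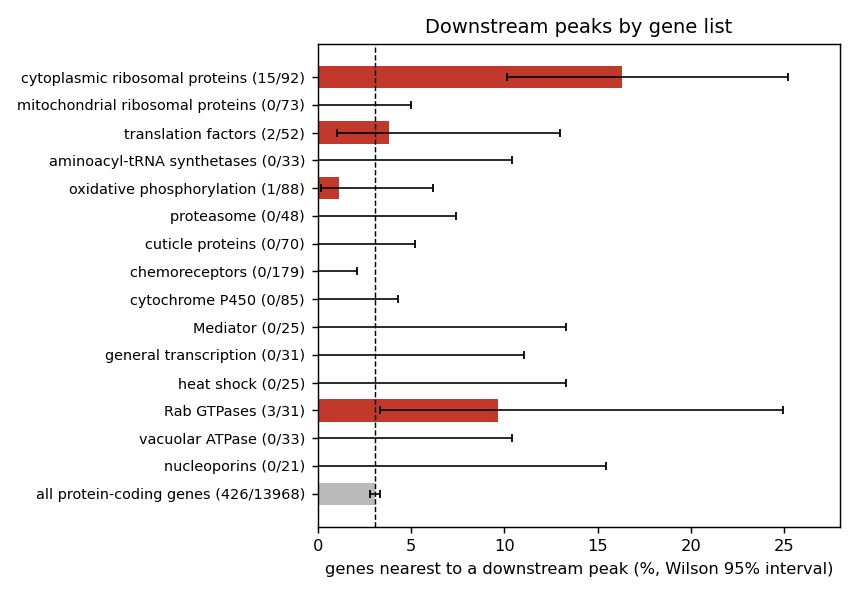
Percentage of the genes of each list that are nearest to a downstream peak (bars, with Wilson 95% intervals and the counts beside the names); the dashed line marks the 3.05% of all 13968 protein-coding genes. Cytoplasmic ribosomal protein genes stand at 16.3%, and 11 of the 15 lists are at 0.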

How the data were processed

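ChIP-seq peak lists of 2 biological replicates were analysed on dm6. Per the labels, no step beyond sonication and anti-GFP pull-down is described; no aligner, peak caller or version is given in the sources used here, and the listings name a control alignment as an input. The deposited score follows the irreproducible discovery rate (IDR), and every thresholded peak of the conservative list scored at least 830. The deposited signal column holds the authors' peak height. The deposited −log10 columns hold the authors' transformed p, q or IDR values and were not used for tests. The authors' summit offset placed each summit. The conservative list derives from both samples, so its values are pooled and have no error.

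Starts came from Ensembl release 115 (19276 coding starts, 13968 coding genes) and sequence from the RefSeq copy of the same assembly; no peak passed a chromosome end. The 5 conservative peaks off the main arms were left out. An overlap needed at least 1 bp; a sample's signal is that of its overlapping thresholded peak, or else ranked peak, with the nearest summit. Candidates numbered 128244 of 135519 ranked summits. Shares were compared by two-sided Fisher's exact tests with Benjamini-Hochberg adjustment per family, at an adjusted p of 0.05, in Python 3.11.15 with scipy 1.17.1, and have Wilson 95% intervals; a count of 0 was given as 3 over the total. Classification and tests were tested on simulated data. The 25 named members are those of highest signal found in both samples, besides up to 3 per gene list and those at the edges of the rule. Members, 15 gene lists and 23 words were chosen with earlier results of these data known. Alternatives were the other series-level list, each sample's own list, peaks above the median signal, other windows, gene types, starts, overlaps and candidates.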

Additional observations from a re-analysis of the deposited data

How the results depend on the processing

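Of 229 pairs of a test and an alternative, 191 kept direction and side of the threshold, 16 missed the threshold, 6 newly passed it and 16 changed direction. Stronger and weaker peaks are those above and not above the median signal, values are odds ratios unless said otherwise, and the cause of a change was not tested unless named. Windows of 100 bp, the weaker peaks and 1 peak per start were added after seeing the data, as were all comparisons of words and G+C with candidates. The 100 bp window gives no value for near against far peaks or for a second peak. The leading word was held as first chosen. Leaving out a replicate means using the own list of the other. No paired analysis was possible because there is only 1 group. Depth is unknown, so no limit of detection can be set per peak.

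Intron share against candidates was 0.711 (window 250 bp), 0.802 (100 bp) and 0.976 (weaker peaks), and missed the threshold at 1.21 with all gene types and 1.19 with 1 peak per start. G+C against candidates was 0.832 in weaker peaks, 1.02 (250 bp) and 1.06 (100 bp). Recovery in both samples against upstream peaks missed the threshold at 0.769 in stronger and 0.905 in weaker peaks, and against divergent peaks at 0.659, 0.754 and, with 100 bp, 0.712. Signal against divergent peaks missed it at 0.673 (100 bp). Repeats missed it at 0.799 (1000 bp), 0.734 (100 bp) and 0.638 (weaker peaks), and near against far G+C at 0.604 (250 bp). A second peak missed it at 3.26 (stronger peaks) and 1.43 (weaker peaks), with partners counted only on the same side of the median. Non-coding starts changed direction to 1.08 with the other series-level list, 1.36 in stronger peaks, 1.12 (1000 bp), 2.82 (100 bp) and 2.62 with all gene types, where the start itself may be non-coding by construction; without a replicate it was 1.23 to 1.38. Near against far signal turned to 1.15 with the other series-level list, 1.21 (250 bp) and 1.89 (weaker peaks, past the threshold at an adjusted p of 0.00974 by Fisher's exact test), and was 0.558 (1000 bp, past the threshold). Near against far recovery passed at 0.494 (1000 bp) and 0.633 (all gene types), was 1.14 in weaker peaks and 0.437 to 0.575 without a replicate, passing with replicate 1 alone. The leading word passed at 3.89 (250 bp) and 5.97 (first start of each gene) and was 0.648 to 3.28 without a replicate.

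Among results that kept their call, several odds ratios moved by over 1.5 times, besides those given in the report. The downstream share was 0.126 (stronger peaks), 0.396 (weaker peaks) and 0.492 (100 bp). Signal was 0.615 and 0.684 against upstream and 0.595 and 0.612 against divergent peaks (stronger and weaker peaks, each against its own median), and 0.453 against divergent peaks (1000 bp). Recovery against divergent peaks was 0.514 (1000 bp). G+C was 0.506 (1000 bp) and 0.467 (100 bp) against upstream, 0.233 (stronger peaks), 0.0542 (250 bp) and 0.402 (1000 bp) against divergent peaks, and 0.162 near against far (1000 bp). Intron share was 2.45 (stronger peaks) and 2.79 (1000 bp).

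The number of words that differed from upstream summits was 5 with the other series-level list, 0 in stronger peaks, 7 (250 bp), 5 with 1 peak per start, 7 in a word window of 100 bp and 0 to 4 without a replicate. Against candidates it was 0 (250 bp), 0 (weaker peaks), 2 (100 bp), 2 and 10 in word windows of 25 and 100 bp, and 2 to 6 without a replicate. At starts it was 1 in stronger peaks, 4 (100 bp) and 0 to 1 without a replicate.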
